A study of Homo sapiens with 8 samples.

Results

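The aryl hydrocarbon receptor gene AHR, its partner ARNT, its repressor AHRR and 5 target genes, CYP1A1, CYP1B1, CYP1B1-AS1, TIPARP and UGT1A6, were followed in A549 cells, an established human lung adenocarcinoma line. These are 8 of the 60624 genes in the files. They were chosen by the measured counts of CYP1B1 and TIPARP, which were higher with SPHINX31 than without treatment, and each was found by its Ensembl identifier. There were 4 groups of A549 cells with 2 technical duplicates each: untreated cells, cells given indisulam, cells given SPHINX31 and cells given the combination. Indisulam is a molecular glue that leads to the degradation of the splicing factor RBM39, and SPHINX31 is an inhibitor of SRPK1, a kinase of splicing factors. By the methods text indisulam was used at 0.5 μM and SPHINX31 at 5 μM, each for 24 h, while the sample labels give 2 μM indisulam and 18 h for every library, the untreated ones included. Whether untreated cells received the solvent is not given in the sources used here. All groups shared the same line and medium with serum, and the labels call the libraries technical duplicates, so that p-values measure only the spread between these libraries.

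AHR is a ligand-activated transcription factor of the bHLH-PAS family. Without a ligand it is held in the cytoplasm by a complex with the chaperone HSP90, and with a ligand, such as a combustion product or a tryptophan metabolite, it enters the nucleus, pairs with ARNT and binds short DNA elements with the core GCGTG in front of its target genes. CYP1A1 and CYP1B1 encode cytochrome P450 enzymes that oxidise aromatic hydrocarbons and are classical readouts of the receptor in lung epithelium exposed to smoke. AHRR and TIPARP are targets that act back on the receptor: AHRR competes for ARNT, and TIPARP is an enzyme that attaches single ADP-ribose units to AHR. UGT1A6 encodes an enzyme that couples glucuronic acid to phenols for excretion.

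To show the DNA in which the receptor's core element was looked for, the 250 bases in front of the annotated start of 3 targets are printed, from RefSeq on GRCh38.p14, with each match to GCGTG, or to CACGC for the other strand, in capitals. CYP1A1 lies on the minus strand and its window is chr15:74725529-74725778, TIPARP (the first of 3 annotated starts) lies on the plus strand at chr3:156674340-156674589, and AHRR (the first of 2) lies on the plus strand at chr5:321464-321713.
CYP1A1: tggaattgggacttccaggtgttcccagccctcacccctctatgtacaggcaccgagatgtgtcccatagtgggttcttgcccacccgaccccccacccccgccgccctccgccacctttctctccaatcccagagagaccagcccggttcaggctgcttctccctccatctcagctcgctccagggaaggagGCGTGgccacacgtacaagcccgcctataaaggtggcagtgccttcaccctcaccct
TIPARP: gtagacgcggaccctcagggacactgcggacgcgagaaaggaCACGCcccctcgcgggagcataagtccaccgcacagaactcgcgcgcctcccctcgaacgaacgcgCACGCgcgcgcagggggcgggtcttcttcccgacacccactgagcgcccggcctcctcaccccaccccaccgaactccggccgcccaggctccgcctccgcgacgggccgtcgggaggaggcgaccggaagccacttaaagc
AHRR: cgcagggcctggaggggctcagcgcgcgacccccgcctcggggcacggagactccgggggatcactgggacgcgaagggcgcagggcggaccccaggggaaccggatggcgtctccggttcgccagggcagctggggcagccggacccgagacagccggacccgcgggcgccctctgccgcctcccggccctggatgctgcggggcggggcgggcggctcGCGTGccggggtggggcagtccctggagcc
The CYP1A1 window held 1 match, 57 bases before the start. In TIPARP there were 2 matches, 208 and 142 bases before the start, and in AHRR there was 1 match, 30 bases before it. The table of promoters held 7 of the 8 genes, all but CYP1B1, with 11 starts in all, of which 6 had at least 1 match. The same search found at least 1 match in 32.2% of 35116 promoter windows of this length, at least 2 matches in 10.2% and the longer form TNGCGTG in 4.5%. The windows of CYP1B1-AS1 and of the first UGT1A6 start also held 1 match each, and those of AHR and ARNT held none. The longer form was present in the windows of AHRR, CYP1B1-AS1 and UGT1A6, and not in those of CYP1A1 and TIPARP. DNA further upstream was not searched and binding was not tested, so no match printed here is shown to be a working element.

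The libraries held 51727369 to 63186989 counts on genes, and 18661 genes passed the filter on low counts, all 8 of these genes among them. Levels are given as CPM (counts scaled to library size) for 1 gene across libraries, and as TPM, which also divides by exon length, between genes. The markers of the line were present, with KRT8 and KRT18 at 3380 to 4100 CPM and EPCAM at 25.4 to 33.6 CPM. The leukocyte marker PTPRC and the fibroblast marker COL3A1 had at most 3 counts in any library, while COL1A1 had 3.23 to 4.65 CPM. The endothelial marker PECAM1 had 1.45 to 2.36 CPM. The hepatocyte marker ALB had at most 15 counts and the type II pneumocyte marker SFTPC at most 18. The mRNA of RBM39 rose with indisulam by 1.22 on the log2 scale (adjusted p = 5.41e-09) and differed by 0.08 between combination and indisulam (adjusted p = 0.411). Indisulam acts on the RBM39 protein, which RNA counts do not measure, so this rise does not show the loss of the protein.

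In untreated cells CYP1B1 was the most abundant of the 8 per length, at 68.6 ± 6.45 TPM (SD, n = 2). It was followed by AHR at 29.7 ± 0.152 TPM and ARNT at 27.2 ± 1.07 TPM, then by TIPARP at 12.5 ± 0.092 TPM. UGT1A6 was at 3.08 ± 0.17 TPM, CYP1B1-AS1 at 0.832 ± 0.0986 TPM, CYP1A1 at 0.163 ± 0.103 TPM and AHRR at 0.0337 ± 0.0114 TPM. No neighbours in this order overlapped between their libraries, so that A549 cells held much CYP1B1 mRNA and almost no CYP1A1 mRNA before any treatment. With SPHINX31 the order changed at 2 places: TIPARP, at 42 ± 2.01 TPM, stood above AHR, and CYP1A1, at 7.36 ± 1.29 TPM, stood above UGT1A6 and CYP1B1-AS1. In the combination AHR, at 28.8 ± 2.26 TPM, and TIPARP, at 28.1 ± 2.86 TPM, overlapped. The length used for TPM includes exon bases shared with other genes on the same strand. These are 29.5% for AHR, 44.2% for UGT1A6 and 58.7% for AHRR. If reads on shared bases were not counted, the TPM of these genes are too low. Their places in the order, such as CYP1A1 above UGT1A6 with SPHINX31, therefore depend on this length.

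**Figure D1:**
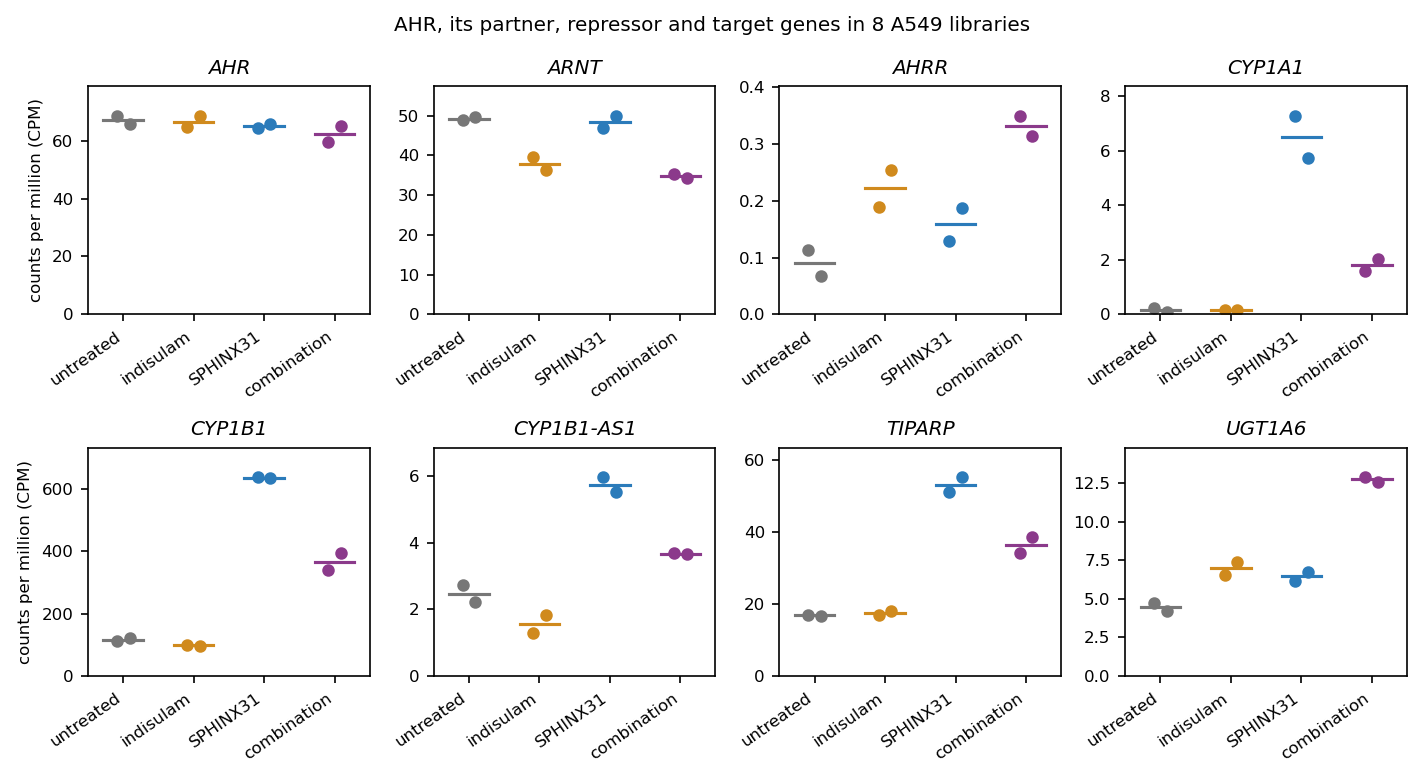
Each panel plots the CPM of 1 gene (y axis, from 0) in the 4 groups (x axis), with a point for each of the 2 libraries and a line at their mean. CYP1A1, CYP1B1, CYP1B1-AS1 and TIPARP were lowest without SPHINX31, highest with SPHINX31 alone and between in the combination, while UGT1A6 was highest in the combination and ARNT was low in both groups with indisulam.

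The comparison of the combination with indisulam alone asks what SPHINX31 adds to cells that already have indisulam. Its 4 libraries are not those of the rule that chose the genes. The genes were, however, chosen for a rise with the same compound in the same experiment, with earlier results known. The comparison is therefore not an independent test of them. In it CYP1A1, CYP1B1, CYP1B1-AS1, TIPARP and UGT1A6 rose, and AHR, ARNT and AHRR did not pass the test. These are 5 of 8 genes called higher (edgeR quasi-likelihood test, adjusted by Benjamini-Hochberg over all genes), with a median log2 fold change of 0.97. Among all tested genes 3.17% were called higher and 7.5% were called in either direction, with a median of 0.00 on the log2 scale. CYP1A1 reached the filter on low counts only through the groups with SPHINX31, and AHRR only through those with indisulam, and of the other 6 genes 4 were called higher. Over all tested genes, 592 were higher and 807 lower, or 942 and 498 when libraries were scaled by their totals alone. The number of calls, 1399, was 609 without combination replicate 1, 440 without combination replicate 2 and 696 without indisulam replicate 1.

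The receptor gene was not called in any of the 3 comparisons tested. AHR (chr7:16916359-17346152, plus strand) was at 68.7 and 65.7 CPM in untreated cells, 64.6 and 68.5 CPM with indisulam, 64.4 and 65.7 CPM with SPHINX31 and 59.7 and 65.3 CPM with the combination. The indisulam and combination libraries overlapped, and the log2 difference of −0.09 had a 95% interval from −0.22 to 0.04 (adjusted p = 0.406). Of the exon bases of AHR in GENCODE, 29.5% are shared with an overlapping gene on the same strand that had 0 counts in all libraries.

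ARNT, the partner that AHR shares with the hypoxia factors, was lower in both groups with indisulam. Its levels (chr1:150809713-150876708, minus strand) were 48.8 and 49.7 CPM in untreated cells and 46.9 and 49.9 CPM with SPHINX31, against 39.5 and 36.2 CPM with indisulam and 35.4 and 34.4 CPM with the combination. ARNT fell with indisulam alone by 0.38 on the log2 scale (SE 0.0609, adjusted p = 0.000241) and with indisulam on top of SPHINX31 by 0.47 (SE 0.0612, adjusted p = 2.94e-05). SPHINX31 on top of indisulam gave −0.12 (SE 0.0618, adjusted p = 0.285), although the libraries of these groups did not overlap.

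AHRR (chr5:321714-438291, plus strand) was at the limit of detection, with 7 and 4 counts in the untreated libraries, 11 and 13 with indisulam, 7 and 11 with SPHINX31 and 20 and 18 with the combination. The combination libraries were the highest, and those of indisulam lay above those of untreated cells. AHRR passed the filter on low counts only through the groups with indisulam, so its calls with indisulam are no independent support for a rise. Its log2 difference between combination and indisulam was 0.59 (SE 0.361, adjusted p = 0.377), and that between indisulam and untreated cells was 1.26 (SE 0.47, adjusted p = 0.0435). The latter call was lost with any 1 of its 4 libraries left out (lowest value 0.95, adjusted p = 0.224, without untreated replicate 2). A readthrough gene of PDCD6 and AHRR that shares 58.7% of the AHRR exon bases in GENCODE was not analysed here.

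CYP1A1, the P450 gene usually taken as the most inducible target, was nearly silent without SPHINX31. It had 14 and 5 counts in the untreated libraries and 10 and 8 with indisulam, against 395 and 336 with SPHINX31 and 90 and 116 with the combination, which are 7.29 and 5.74 CPM and 1.57 and 2.03 CPM. The groups with SPHINX31 lay far above those without it, and the combination lay below SPHINX31 alone. On top of indisulam the log2 fold change of CYP1A1 (chr15:74719542-74725536) was 3.43 (SE 0.332, adjusted p = 9.93e-05), the second highest of 18661 genes. CYP1A1 passed the filter on low counts only through the groups with SPHINX31, where it was high. Its test and rank are therefore no independent support for a rise. In CPM the combination mean was 10.9 times the indisulam mean.

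CYP1B1 had the largest difference of the 8 genes in CPM. It was at 110.4 and 121.5 CPM in untreated cells and 98.1 and 97.4 CPM with indisulam, against 638.9 and 636.5 CPM with SPHINX31 and 338.9 and 394.7 CPM with the combination. No library with SPHINX31 came near one without it. On top of indisulam CYP1B1 (chr2:38066973-38109902, minus strand) rose by 1.91 on the log2 scale (SE 0.0695, adjusted p = 8.1e-09), 3.75 times in CPM. This was the highest rise of the 9980 genes whose average log2 CPM reached 3, before IGFL2-AS1 (1.71) and GDF15 (1.10), a stress-induced cytokine of the TGF-beta family.

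The count of CYP1B1 reads for each CYP1A1 read was 487 and 1450 in the untreated libraries and 570 and 620 with indisulam. It was 87.6 and 111 with SPHINX31 and 215 and 195 with the combination. CYP1A1 was thus the smaller but relatively more raised of the 2 in both groups with SPHINX31, from a base of 5 to 14 counts.

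CYP1B1-AS1, a noncoding gene that runs opposite to CYP1B1 (chr2:38073447-38231651, plus strand), was at 2.72 and 2.21 CPM in untreated cells, 1.29 and 1.83 CPM with indisulam, 5.96 and 5.50 CPM with SPHINX31 and 3.69 and 3.65 CPM with the combination. It rose on top of indisulam by 1.25 on the log2 scale (SE 0.165, adjusted p = 0.000687), and the groups did not overlap. The 2 genes share 678 exon bases on opposite strands. The strand setting of the counting is not given in the sources used here. Of 793 genes whose exons lie wholly under exons of the other strand, 57.5% had counts, against 17.6% of 1433 genes wholly under exons of the same strand, but with 80 or more counts over all libraries the shares were 7.1% and 8.2%. These shares do not settle whether the counting used strand, and reads on the shared bases may not be told apart between the 2 genes. CYP1B1-AS1 counts were 2.46% and 1.82% of the CYP1B1 counts in untreated cells, 1.32% and 1.87% with indisulam, 0.933% and 0.865% with SPHINX31 and 1.09% and 0.925% with the combination. The share was therefore lower in each library with SPHINX31 than in each library without it.

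TIPARP, the ADP-ribosyltransferase that limits the receptor, was at 17.0 and 16.6 CPM in untreated cells and 17.0 and 17.9 CPM with indisulam. With SPHINX31 it was at 51.1 and 55.2 CPM, and with the combination at 34.2 and 38.6 CPM. The groups with and without SPHINX31 were apart, and the untreated and indisulam libraries overlapped. TIPARP (chr3:156673235-156706770) rose on top of indisulam by 1.06 on the log2 scale (SE 0.0738, adjusted p = 8.23e-06), 2.09 times in CPM, which placed it at rank 5 of the 9980 genes above.

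**Figure D2:**
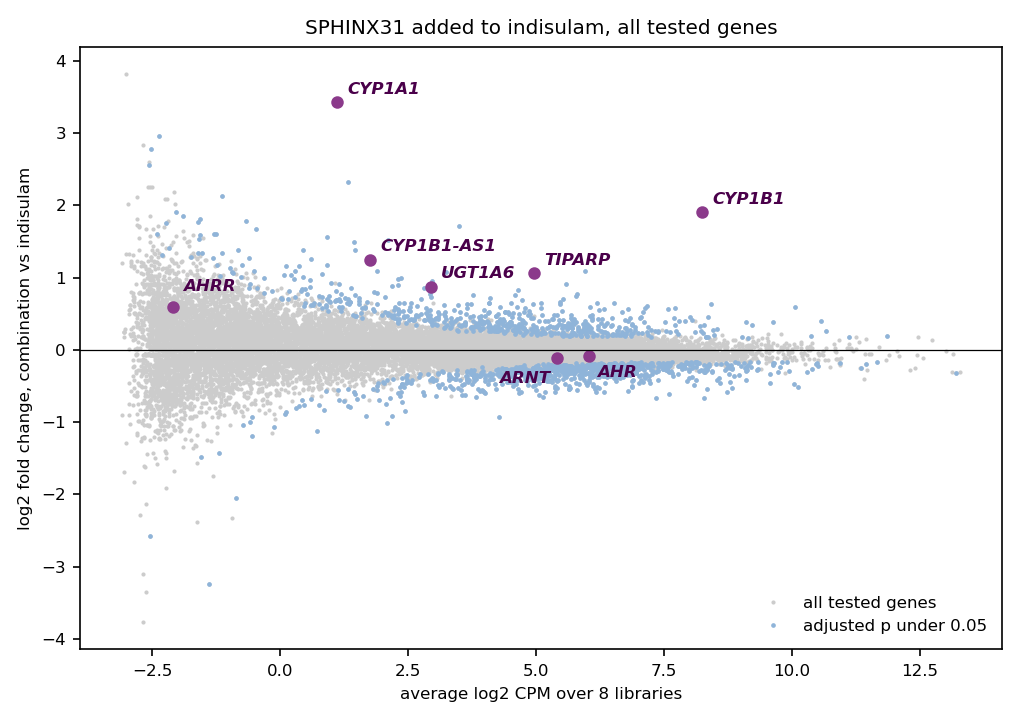
Every tested gene is plotted by its average log2 CPM over 8 libraries (x axis) and its log2 fold change between combination and indisulam (y axis), with genes at an adjusted p under 0.05 in blue and the 8 genes named. CYP1B1 stands alone at its level with 1.91, CYP1A1 stands at 3.43 among genes of low counts, and AHR and ARNT lie near 0.

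UGT1A6 had another pattern than the P450 genes. It was at 4.73 and 4.21 CPM in untreated cells, 6.52 and 7.42 CPM with indisulam, 6.18 and 6.75 CPM with SPHINX31 and 12.9 and 12.6 CPM with the combination. The untreated libraries were the lowest and the combination libraries the highest, with both single treatments between them and overlapping each other. UGT1A6 (chr2:233691607-233773300) rose by 0.87 on the log2 scale when SPHINX31 was added to indisulam (SE 0.0949, adjusted p = 0.000192) and by 0.98 when indisulam was added to SPHINX31 (SE 0.0953, adjusted p = 2.27e-06). It also rose with indisulam alone, by 0.64 (SE 0.104, adjusted p = 0.000273).

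UGT1A6 is 1 of a row of genes on chromosome 2 that have first exons of their own and share the last ones, and 44.2% of its exon bases are shared with the others. UGT1A10 and UGT1A4 had at most 1 count in any library, so reads on the shared exons were not given to every gene of the row. The 3 others that passed the filter rose as well when SPHINX31 was added to indisulam, where 3.17% of all tested genes were called higher. UGT1A7 rose by 0.85 on the log2 scale (SE 0.124, adjusted p = 0.00126), UGT1A1, the bilirubin enzyme, by 0.52 (SE 0.0921, adjusted p = 0.00442), and UGT1A9 by 0.30 (SE 0.0853, adjusted p = 0.0473). With indisulam alone the same 3 were also called higher, with log2 fold changes of 0.45, 0.39 and 0.59 in this order. There 20.1% of all tested genes were called higher.

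**Figure D3:**
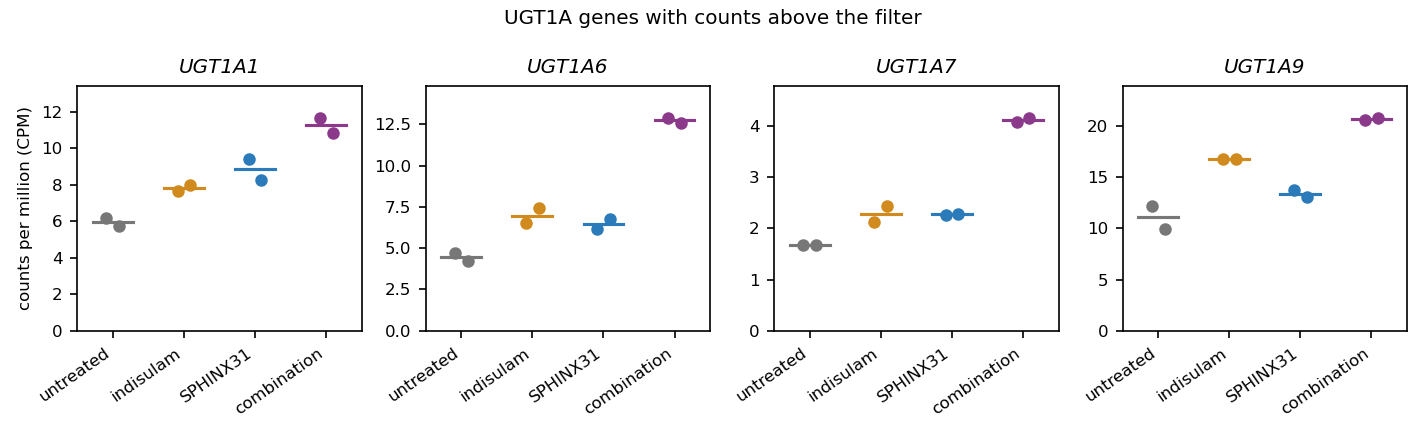
CPM (y axis, from 0) of the 4 UGT1A genes above the filter are plotted for the 2 libraries of each group (points) with their mean (line). In all 4 genes the combination libraries were the highest and the untreated libraries the lowest, with UGT1A6 at 12.9 and 12.6 CPM in the combination.

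SPHINX31 against untreated cells is the comparison by which the genes were chosen, so its values are given as a description. The log2 difference was 5.36 for CYP1A1 (SE 0.269), the highest of 18661 genes, 2.46 for CYP1B1, 1.66 for TIPARP, 1.21 for CYP1B1-AS1 and 0.53 for UGT1A6. It was 0.80 for AHRR (SE 0.501), −0.05 for AHR and −0.02 for ARNT. Without untreated replicate 1, which had 14 of the 19 untreated counts, the value for CYP1A1 was 6.24, and without untreated replicate 2 it was 4.83. In this comparison 8.61% of all genes were called. CYP1A1 was among the ranked genes only through the groups with SPHINX31.

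Both differences made by SPHINX31 can be set side by side, and share no library. For CYP1A1 it was 5.36 without and 3.43 with indisulam, for CYP1B1 2.46 and 1.91, and for TIPARP 1.66 and 1.06. For CYP1B1-AS1 it was 1.21 and 1.25, and for UGT1A6 0.53 and 0.87. The first 3 genes had the higher value without indisulam and UGT1A6 the higher value with it, but the differences between these values, which include the comparison that chose the genes, did not pass the test for any of the 5 genes (adjusted p from 0.178 for CYP1B1 and TIPARP to 0.98 for CYP1B1-AS1).

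**Figure D4:**
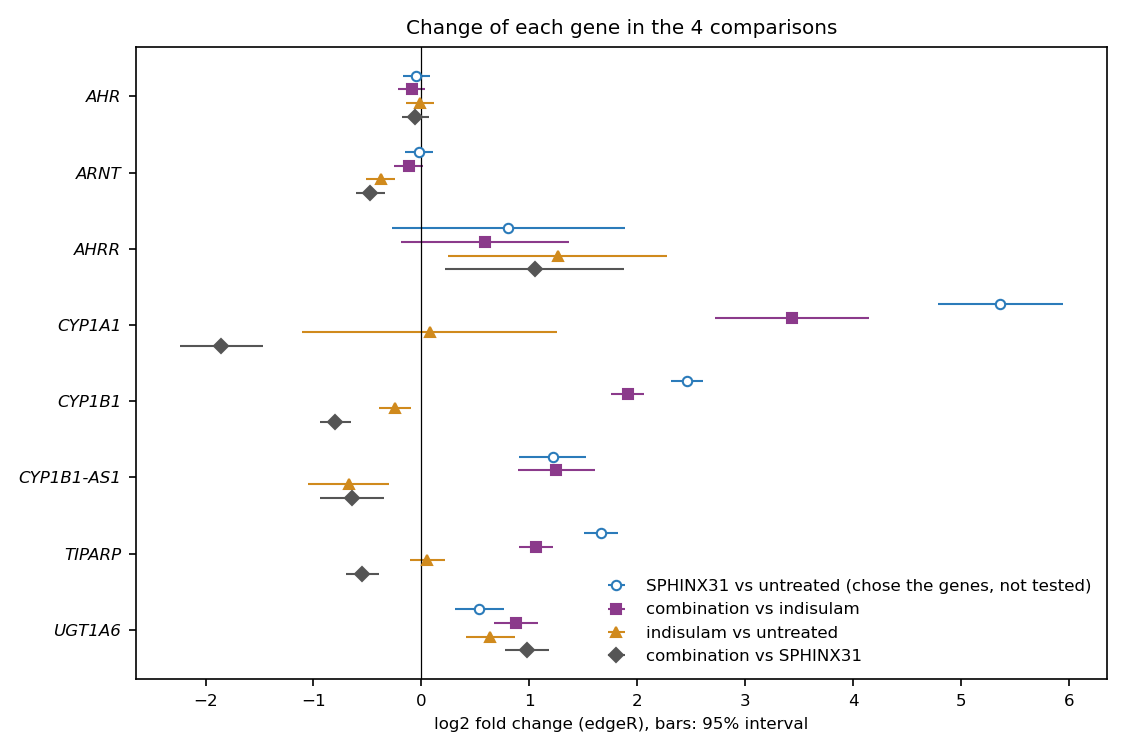
The log2 fold change of each gene (x axis) with its 95% interval (bars) is plotted for the 4 comparisons, with open circles for the comparison by which the genes were chosen and no test of it. CYP1A1, CYP1B1, CYP1B1-AS1 and TIPARP lie right of 0 where SPHINX31 was added and left of 0 in combination against SPHINX31, while all 4 values of UGT1A6 lie between 0.53 and 0.98.

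Adding indisulam to SPHINX31 lowered most of the targets, in a comparison that shares the SPHINX31 libraries with the choice of genes. CYP1A1 fell by 1.85 on the log2 scale (SE 0.178, adjusted p = 2e-06) and CYP1B1 by 0.80 (SE 0.0666, adjusted p = 5.43e-07). CYP1B1-AS1 fell by 0.64 (SE 0.137, adjusted p = 0.00163) and TIPARP by 0.55 (SE 0.0693, adjusted p = 2.45e-05). AHR gave −0.06 (adjusted p = 0.439), and AHRR was called at 1.05 (adjusted p = 0.0362), from 7 and 11 counts to 20 and 18, a call lost with any 1 of these 4 libraries left out (lowest value 0.83, adjusted p = 0.169). With ARNT and UGT1A6 these make 5 genes lower and 2 higher of 8, where 49.9% of all tested genes were called in either direction. AHRR and CYP1A1 passed the filter on low counts only through groups where they were high. Of the other 6 genes 4 were lower and 1 higher. CYP1B1 and TIPARP were chosen for high values in these SPHINX31 libraries, which favours a fall here.

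Indisulam against untreated cells shares the untreated libraries with the choice of genes. CYP1B1 was called lower by 0.25 on the log2 scale (SE 0.0683, adjusted p = 0.0102), a call lost without untreated replicate 2 (−0.18, adjusted p = 0.121). CYP1B1-AS1 was called at −0.68 (SE 0.172, adjusted p = 0.00632) and lost the call without untreated replicate 1 (−0.52, adjusted p = 0.0739) or indisulam replicate 1 (−0.43, adjusted p = 0.0913). TIPARP differed by 0.05 (adjusted p = 0.594), AHR by −0.01 (adjusted p = 0.875) and CYP1A1 by 0.08 (SE 0.547, adjusted p = 0.924), where 5 to 14 counts could not show a difference of this size. In this comparison 43.7% of all tested genes were called, and of the 8 genes 2 were higher and 3 lower. AHRR is among the higher genes, but it passed the filter on low counts only through the groups with indisulam. Without AHRR and CYP1A1, 1 gene was higher and 3 lower of 6.

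Beyond the 8 genes, 124 genes of the wider pathway were read in 10 lists, and 108 of them passed the filter. The lists too were chosen with earlier results of these data known, so their shares are a description. When SPHINX31 was added to indisulam, 21 of the 108 rose and 7 fell, together 25.9%, beside 7.5% of all genes. This number of 28 was 13 without combination replicate 1, 7 without combination replicate 2 and 14 without indisulam replicate 1. With SPHINX31 against untreated cells 27 were higher and 4 lower, together 28.7%, beside 8.61% of all genes. With indisulam alone 26 were higher and 26 lower, together 48.1%, beside 43.7%, and with indisulam added to SPHINX31 21 and 37, together 53.7%, beside 49.9%, so that both shares lay near those of all genes.

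In a list of 14 genes, of the receptor's complex, its coactivators and other bHLH-PAS factors, 1 rose and 1 fell. This is 14.3%, beside 7.5% of all genes. EPAS1, a hypoxia factor that also pairs with ARNT, rose by 0.23 on the log2 scale (SE 0.0453, adjusted p = 0.00733). HIF1A, another hypoxia factor, fell by 0.21 (SE 0.058, adjusted p = 0.0454). No chaperone or coactivator gene of the list was called in combination against indisulam. The median of the list was 0.02. HSP90AB1, a chaperone of the unliganded receptor, differed by −0.03 (adjusted p = 0.736) at 1501 to 2137 CPM over all libraries. HSP90AA1, the other HSP90 gene of the list, differed by −0.21 (adjusted p = 0.148) between libraries that did not overlap. With SPHINX31 against untreated cells 3 genes of the list were called higher and 1 lower, together 28.6%, beside 8.61% of all genes. The lower one was HSP90AA1 (−0.37, adjusted p = 0.0137).

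Of the classical gene battery outside the 8 genes, 2 of 6 tested genes rose, which is 33.3%, beside 7.5% of all genes called in either direction. They were UGT1A1 (above) and NFE2L2, the gene of the antioxidant factor NRF2, which rose by 0.27 on the log2 scale (SE 0.0519, adjusted p = 0.00752). The battery's most abundant genes in these cells did not pass. ALDH3A1, an aldehyde dehydrogenase, was at 3839 and 4322 CPM with indisulam and 4641 and 4605 CPM with the combination, a log2 difference of 0.18 (SE 0.0625, adjusted p = 0.103) between libraries that did not overlap. NQO1, a quinone reductase, was at 2199 and 2332 CPM with indisulam and 2242 and 2335 CPM with the combination, which overlapped (0.01, adjusted p = 0.894).

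Among 19 tested genes of a further list described as AHR responsive, 8 rose and 1 fell, with a median of 0.14 on the log2 scale. This is 47.4% called, beside 7.5% of all genes. IL1B, an inflammatory cytokine, rose by 1.18 (SE 0.239, adjusted p = 0.00924), from 24 and 28 counts with indisulam to 61 and 63. IGFBP1, which binds insulin-like growth factors, rose by 0.57 (SE 0.134, adjusted p = 0.0207), EREG, a ligand of the EGF receptor, by 0.57 (SE 0.0807, adjusted p = 0.00107), and CDKN1A, the cell cycle inhibitor p21, by 0.44 (SE 0.0618, adjusted p = 0.00102). These 4 genes also answer to other pathways. The gene of the list that fell was NEDD9, by 0.31 (SE 0.0611, adjusted p = 0.00828). NEDD9 was also called lower with SPHINX31 against untreated cells (−0.34, adjusted p = 0.00407). EREG was at 57.2 and 56.9 CPM with indisulam and 76.4 and 93.1 CPM with the combination, but at 95.9 and 105.9 CPM in untreated cells and 196.1 and 207.9 CPM with SPHINX31. IGFBP1 was at 106.6 and 112 CPM with indisulam and 161.1 and 163.8 CPM with the combination. In untreated cells it was at 168.7 and 132.5 CPM, so the combination lay within the untreated range, and with SPHINX31 at 399.9 and 277.1 CPM.

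The lists of neighbouring pathways were read in the same way, beside 7.5% of all genes called in either direction. The shares called were 11.1% for the tryptophan enzymes, 14.3% for the xenobiotic receptors and 8.33% for the targets of the hypoxia factors. They were 35.7% for the NRF2 targets, 18.2% for the PARP genes and 20% for the other P450 genes. Of 9 tested enzymes between tryptophan and kynurenine, a source of endogenous ligands, none rose and KYNU fell by 0.16 (SE 0.0454, adjusted p = 0.0448). Of 7 tested genes of the xenobiotic receptors PXR and CAR and their targets, none rose and ABCB1, a drug exporter, fell by 0.33 (SE 0.0798, adjusted p = 0.0228). Of 12 targets of the hypoxia factors, which share ARNT, VEGFA rose by 0.27 (SE 0.0586, adjusted p = 0.0139) and none fell.

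Of 14 NRF2 targets 4 rose and 1 fell: SRXN1 rose by 1.60 on the log2 scale, from 9 and 11 counts to 41 and 23 (SE 0.441, adjusted p = 0.0435), and HMOX1, OSGIN1 and GCLM rose by 0.37, 0.37 and 0.33, while AKR1C2 fell by 0.22. Among 11 tested PARP genes related to TIPARP, PARP16 rose by 0.28 (SE 0.0753, adjusted p = 0.0397) and ZC3HAV1 fell by 0.37 (SE 0.0678, adjusted p = 0.00558), beside 1.06 for TIPARP itself. Among 15 other P450 genes and their reductase, CYP26B1, which degrades retinoic acid, rose by 0.66 (SE 0.0687, adjusted p = 0.000172), CYP24A1 rose by 0.18 and CYP4F12 fell by 0.36. No other P450 gene of this list came near the changes of CYP1A1 and CYP1B1 in the positive direction, with 0.66 as the highest value.

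**Figure D5:**
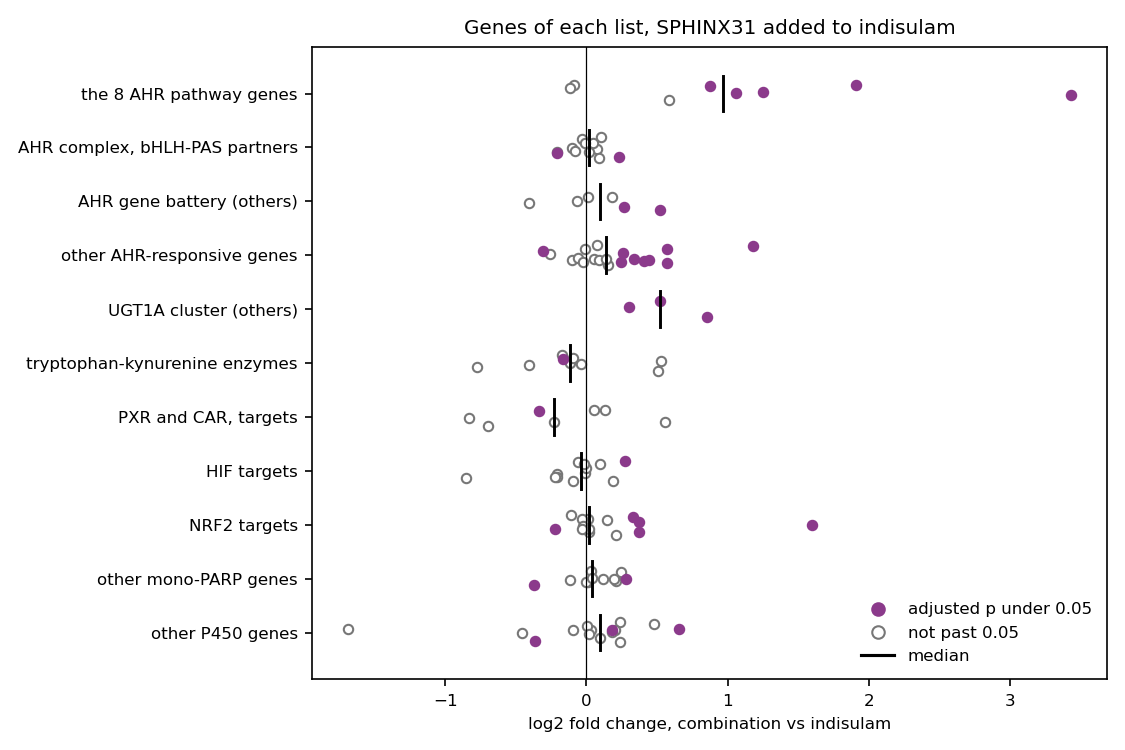
The log2 fold change between combination and indisulam (x axis) is plotted for each tested gene of the 8 chosen genes and the 10 lists (rows), filled where the adjusted p was under 0.05, with the median as a bar. The 8 genes have a median of 0.97 and values up to 3.43, and the other AHR-responsive genes a median of 0.14 and values up to 1.18.

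Finally, the genes whose pattern was most like that of CYP1B1 or TIPARP were sought among 2435 genes of sufficient level and spread, by Pearson's r of log2 CPM over the 8 libraries. For CYP1B1 the leading genes included NTN4 (r = 0.996), TIPARP (0.992), MSC-AS1 (0.991) and RUNX3 (0.979). For TIPARP they included NTN4 (0.996), CYP1B1 (0.992), MSC-AS1 (0.988) and ST3GAL1 (0.984). The 8 points are 4 treatment groups of 2 libraries each and include those by which CYP1B1 and TIPARP were chosen, so these values only describe likeness. The sizes of the changes differed: NTN4, a netrin, differed by 0.42 on the log2 scale between combination and indisulam, against 1.91 for CYP1B1. In bulk RNA more expressing cells and more RNA per cell cannot be told apart for any of these genes. SPHINX31 at 1 dose was the only SRPK1 inhibitor in these libraries, so that inhibition of SRPK1 and other actions of the compound cannot be told apart either.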

How the data were processed

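RNA of A549 cells was prepared as stranded polyA libraries and sequenced as 150 bp paired-end reads, in 2 libraries for each of 4 groups. The deposited values are raw counts per Ensembl gene that the authors made, with no normalization. The submitters' processing notes name HISAT2 2.2.1, HTSeq and GRCh38; the strand setting and annotation are not given in the sources used here. Counts on genes made up between 82.955% and 86.004% of the sum of counts on genes, without a feature, ambiguous or not uniquely aligned.

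Names, positions and exon lengths came from GENCODE 44, which matched 99.6% of genes. Counts of all 8 libraries were fitted together in R 4.3.3 with edgeR 4.0.16 (filterByExpr, TMM, quasi-likelihood test, Benjamini-Hochberg over 18661 genes, threshold 0.05), after tests on simulated data. CPM uses TMM-scaled library sizes, and the log2 fold changes carry edgeR's prior count of 0.125. The 8 genes and the lists were chosen with earlier results of these data known. From each list up to 4 called genes were named by size of change, with further genes that fell, and for the receptor complex and the battery abundant genes too. Alternatives were other scaling, looser and stricter filters, only the compared groups, a replicate block, DESeq2 1.42.0 and leaving out each library. A gene with a pattern like that of CYP1B1 is not reported here.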

Additional observations from a re-analysis of the deposited data

How the results depend on the processing

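The 5 rises with SPHINX31 on top of indisulam kept their direction and their call in every alternative that could be computed, with highest adjusted p-values of 0.00411 for CYP1A1, 5.22e-07 for CYP1B1, 0.0141 for CYP1B1-AS1, 0.000599 for TIPARP and 0.00593 for UGT1A6. A filter of at least 10 counts in every library removes CYP1A1 and AHRR, so they have no value there. Under the main filter, which most alternatives share, CYP1A1 passed only through the groups with SPHINX31. Its kept call is therefore no independent support for a rise. Of 344 values, 323 kept their direction and call or size. AHRR with indisulam alone lost its call with every gene of at least 1 count (1.27), with only the compared groups (1.27), with the replicate block (1.26) and with DESeq2 (1.30), and with indisulam added to SPHINX31 it did so with DESeq2 (1.07).

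Leaving out 1 library gave ranges, on the log2 scale with indisulam alone, of 0.95 to 1.68 for AHRR, −0.046 to 0.029 for AHR (positive without untreated replicate 1, 0.019, or indisulam replicate 1), −0.45 to 0.96 for CYP1A1, −0.31 to −0.18 for CYP1B1 and −0.93 to −0.43 for CYP1B1-AS1. With indisulam added to SPHINX31 they were 0.83 to 1.36 for AHRR and −0.124 to 0.0171 for AHR, and with SPHINX31 alone 4.83 to 6.24 for CYP1A1. Calls over all genes ranged from 440 to 1050 (main 1399) for combination against indisulam and from 482 to 1532 (main 1606) for SPHINX31 against untreated, with 482 and 539 without untreated replicates 1 and 2 and 697 without SPHINX31 replicate 1. Calls in the lists ranged from 7 to 25 (main 28). Scaling by totals alone turned 921 higher and 685 lower calls of SPHINX31 against untreated into 1341 and 515. The cause of these changes was not tested.

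Same-numbered libraries did not deviate in 1 common direction over 8268 genes. The r was 0.482 between untreated and SPHINX31, but −0.609 between untreated and indisulam and −0.529 between indisulam and SPHINX31. Deviations were thus shared between some groups, with the sign reversed for the indisulam numbers. The replicate number as such does not pair the libraries, and the source of the shared deviations was not tested. With the replicate block 1169, 7851, 9074 and 1330 genes were called in combination against indisulam, indisulam against untreated, combination against SPHINX31 and SPHINX31 against untreated. Depth limits AHRR and untreated CYP1A1, where 1 library decides the size of a difference.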
